A study of Betula luminifera with 2 samples.

Results

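The miR171 family was followed in the timber birch Betula luminifera from its small RNA sequences to the cuts it was listed for on a target transcript. Its members were all entries of the small RNA table named miR170 or miR171 that matched miRBase, the public miRNA registry, which gave 11 of 569 entries. To these were added all alignments of such a miRNA in the degradome table, which gave 6 of 108. The 11 entries held 10 distinct sequences of 505. The study surveyed miRNAs and the transcripts they cleave in tissue-culture seedlings of clone G49# at an age of 2 months, with RNA of roots, stems and leaves pooled. From these plants came 1 small RNA library and 1 degradome library, the latter a collection of the 5′ ends of cut polyadenylated transcripts. No tissue could be compared with another, neither library had a replicate, and the plants of a single clone stand for the species.

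Plant miRNAs are cut from a hairpin precursor as a duplex, of which the strand with the main activity is loaded into an Argonaute protein and the strand from the other arm is mostly discarded. The loaded strand pairs along nearly its whole length with its target, and Argonaute cuts the target between the bases that face bases 10 and 11 of the miRNA. The first base of the miRNA therefore sets the cut, and a miRNA that starts 3 nt earlier cuts the same site 3 nt away. In Arabidopsis, miR170 and miR171 guide the cleavage of transcripts of GRAS-domain transcription factors of the HAIRY MERISTEM type, which maintain shoot meristems and affect branching and chlorophyll formation.

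Names in the table are borrowed from the species in which miRBase holds the sequence, such as Aquilegia (aqc), soybean (gma), Lotus (lja), Medicago (mtr), trifoliate orange (ctr) and Arabidopsis lyrata (aly). The sequences below are those with a listed target or at least 10 reads, written as DNA with the seed (bases 2 to 8) in capitals. They are shown because the letters at their 5′ end decide the cut. Sequences from the 3′ arm fell into an early register and a late register, whose 5′ ends lie 3 nt apart. In the early register, with the seed GATTGAG, were
aqc-miR171a: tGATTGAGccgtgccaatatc
mtr-miR171d_R+1: tGATTGAGccgtgccaatatct
and in the late register, with the seed TGAGCCG, were
ctr-miR171: tTGAGCCGcgtcaatatctcc
lja-miR171d-5p: tTGAGCCGcgccaatatcact
gma-miR171c-3p_R+1_1ss21AG: tTGAGCCGtgccaatatcacgt
gma-miR171c-3p: tTGAGCCGtgccaatatcaca
while the sequences from the 5′ arm were
gma-miR171j-5p: tATTGGCCtggttcactcaga
aly-miR170-5p_R+2: tATTGGCCtggttcactcagatt
gma-miR171c-5p_2ss5AG11GA: aGATGTTGgtacggttcaatc

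The tenth sequence, gma-miR171b-3p_1ss16TC, had 1 read, a seed of its own, and a 5′ end 4 nt after that of the early register. None of the 5 seeds occurred in any sequence outside the family among the 505 in the table. The name lja-miR171d-5p follows the registry. By the folding of its precursor, and in the table's arm column, the sequence lay on the 3′ arm. For ctr-miR171 the table's arm column gave the 5′ arm, whereas the folding of its citrus precursor placed it on the 3′ side of the stem.

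The site shared by all listed alignments lay on transcript CL3425.Contig1, which is 2584 nt long, at positions 1395 to 1419. It is printed as RNA, with the first base of each cut fragment in capitals, at positions 1407 and 1410.
CL3425.Contig1 site: aagggauauuggCgcGgcucaauca

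The family held 991.8 reads, 0.163% of the 607592 listed reads (exact Clopper-Pearson interval at 95%, 0.153 to 0.174%), and ranked 12th of 84 families, between miR398 with 1408 reads and miR168 with 917. The total was dominated by miR166 with 520200 reads, and without the most abundant listed sequence the family's share was 1.05%. Reads come from PCR without molecular identifiers, so intervals cover counting error only. Some values are not whole because the authors divided reads among entries, and such values were rounded for the intervals alone. Per the file headers, a listed sequence is the read with the best mapping score of its cluster, so a value may include reads with slightly different ends.

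The early register led in the small RNA library. Its sequence aqc-miR171a had 506 reads, 51.0% of the family (47.8 to 54.2%). The other early sequence, mtr-miR171d_R+1, is the same 21 nt with 1 more base at the 3′ end, and it had 9 reads. Together they had 515 reads, 51.9% of the family (48.8 to 55.1%).

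The late register was spread over more sequences, and none of them reached the level of aqc-miR171a. ctr-miR171 had 197.8 reads, 19.9% of the family (17.5 to 22.6%). lja-miR171d-5p had 97 reads or 9.78% (8.001 to 11.8%). gma-miR171c-3p_R+1_1ss21AG had 57.5 reads and gma-miR171c-3p had 10.5. The 4 late sequences held 362.8 reads, 36.6% of the family (33.6 to 39.7%), a lower share than that of the early register. Both shares are parts of the same total, and their difference was not tested. Within the late register, 81.3% of the reads (76.9 to 85.1%) belonged to the sequences with C at base 9, ctr-miR171 and lja-miR171d-5p, and the rest to those with T there. Both early sequences have T at base 12, which faces the same position of the transcript.

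Sequences of the 5′ arm, the partner strand of the duplex, held 113 reads or 11.4% of the family (9.48 to 13.5%). Of these, gma-miR171j-5p had 83, gma-miR171c-5p_2ss5AG11GA had 20 and aly-miR170-5p_R+2 had 10. By length, 7 of the 10 sequences were 21 nt, with 92.3% of the reads (90.4 to 93.8%). By first base, 8 of the 10 began with T (U in the RNA), with 97.9% of the reads (96.8 to 98.7%). Length and first base were not compared with those of all listed sequences, so neither can be called particular to the family.

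**Figure D1:**
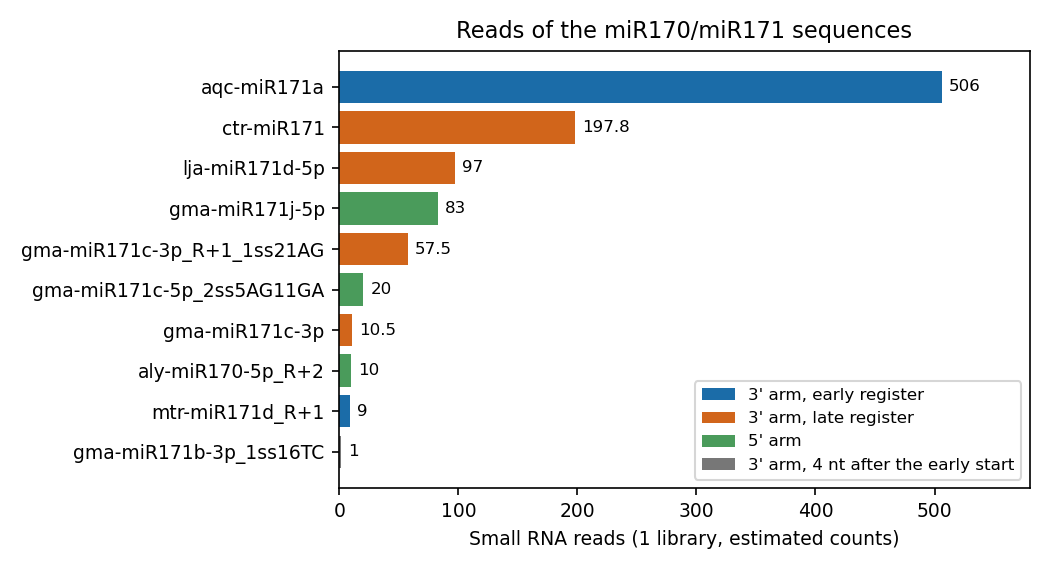
Bars give the small RNA reads (x axis, linear, 1 library, no replicates) of each of the 10 sequences (y axis), coloured by arm and register. The early register is carried by aqc-miR171a with 506 reads, and the late register is spread over 4 sequences of 10.5 to 197.8 reads.

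The hairpins show which of the listed sequences each locus holds by its letters. Of the 10 sequences, 7 were placed on a genome contig of the birch, with 783 reads or 78.9% of the family (76.3 to 81.4%), and 3 matched only miRNAs of other species. Among the latter was ctr-miR171, so the most-read sequence of the late register had no listed locus. The share of all listed sequences that were placed on a contig is not given here. In the hairpins below, capitals mark the stretches of the sequences entered for that precursor, because the pairs of capitals on contig_55848 and contig_259361 are the duplexes of the early and the late register. On contig_234556 the capitals mark the stretch of gma-miR171c-3p_R+1_1ss21AG in the contig's own letters, and aqc-miR171a, entered for a shorter precursor of that contig, covers bases 69 to 89 of the hairpin printed. The sources used here do not give the build of the contigs.
contig_55848:618-739, plus strand: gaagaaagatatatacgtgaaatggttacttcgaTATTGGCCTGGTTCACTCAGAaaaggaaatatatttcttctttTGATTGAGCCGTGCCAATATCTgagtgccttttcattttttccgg
contig_259361:1025-1118, plus strand: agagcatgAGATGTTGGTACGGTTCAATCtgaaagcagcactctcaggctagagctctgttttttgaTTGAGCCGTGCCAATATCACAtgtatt
contig_234556:1024-1130, minus strand: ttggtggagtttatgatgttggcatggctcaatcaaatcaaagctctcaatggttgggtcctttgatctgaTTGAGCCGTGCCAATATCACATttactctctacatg
contig_47168:201-294, minus strand: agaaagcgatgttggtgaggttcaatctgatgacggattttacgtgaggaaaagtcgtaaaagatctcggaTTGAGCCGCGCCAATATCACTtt

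On contig_55848 the 5′ arm gave gma-miR171j-5p and the 3′ arm gave mtr-miR171d_R+1. In the deposited fold, gma-miR171j-5p and the 21-nt form aqc-miR171a formed 16 base pairs with each other and left 2 nt free at both 3′ ends, the spacing that Dicer-type enzymes leave. The 22-nt form mtr-miR171d_R+1 left 3 nt. This duplex is of the early register.

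On contig_259361 the 5′ arm gave gma-miR171c-5p_2ss5AG11GA and the 3′ arm gave gma-miR171c-3p. They formed 18 base pairs, again with 2 nt free at both 3′ ends, and this duplex is of the late register. Of the sequences entered for this contig, the 5′ arm one had 20 reads and its partner 10.5, a divided count. The 3′ arm also holds the letters of aqc-miR171a, whose 506 reads cannot be assigned to a locus. On contig_55848 too, the entered 5′ arm sequence had more reads, 83, than the entered 3′ arm one, 9. The soybean reference differs from the birch 5′ arm sequence by A5G and G11A (reference base, position from the 5′ end of the birch sequence, birch base). The birch sequence itself was identical to the contig.

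The letters of aqc-miR171a occurred in listed hairpins of 4 contigs, namely contig_55848, contig_259361, contig_234556 and contig_234557. Its 506 reads were entered for contig_234556 alone, so they cannot be assigned to a locus from the table. The letters of gma-miR171c-3p occurred on 3 of these contigs and not on contig_55848, which goes on with a different base after the shared 21 nt. The hairpins of contig_259361, contig_234556 and contig_234557 thus hold the letters of listed sequences of both registers. A hairpin without the letters of a listed sequence may still allow a start in its register. On contig_55848, for example, the late seed TGAGCCG lies within the early sequence. lja-miR171d-5p was found on contig_47168 only, whose hairpin does not contain aqc-miR171a.

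The longest late sequence, gma-miR171c-3p_R+1_1ss21AG, was the only placed member that did not match its contig. It differed from it and from the soybean reference by A21G, and it was entered with 27 reads for contig_234556 and 30.5 for contig_234557. The 107-nt hairpins of these contigs were identical in every letter, so whether they are separate loci cannot be told apart from the table. The 6 listed family precursors on contigs were 75 to 122 nt long, with a deposited MFEI (folding energy scaled by GC content and length, higher being more stable) of 1 to 1.3 and a median of 1.3. All 53 matched precursors on contigs, these 6 included, had a median of 1. The value of 1.3 was listed for both identical 107-nt hairpins and for the 75-nt precursor whose letters lie inside them. The family median therefore counts the same stretch more than once. Of the other hairpins, that of contig_259361 had 1.3, and those of contig_55848 and contig_47168 had 1.

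**Figure D2:**
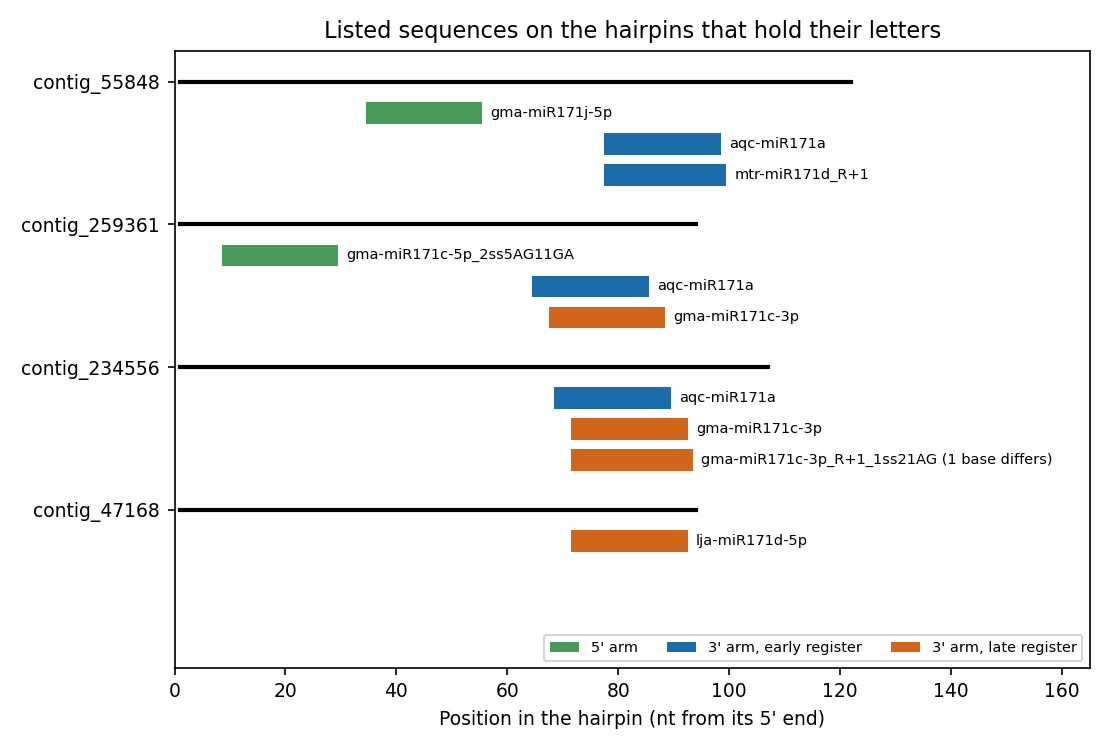
Black lines are 4 hairpins drawn to scale (x axis, nt from the 5′ end of the hairpin) and boxes are the family sequences whose letters they hold, coloured by arm and register. The box of aqc-miR171a starts 3 nt before the late register on contig_259361 and contig_234556, and on contig_55848 no listed late sequence is present.

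The degradome table listed a cut for each register. All 6 alignments of the family were to CL3425.Contig1, and no other miRNA was listed for that transcript. Every one of the 6 sequences in the early and late registers had an alignment. The share of all listed sequences with an alignment is not given here, so this cannot be called particular to the family. In each of the 6 alignments, the listed cut was the base that faces base 10 of the miRNA. The 4 late sequences were assigned to position 1407 and the 2 early sequences to position 1410. This split follows from the letters, since the registers start 3 nt apart. The 6 alignments are therefore not separate evidence, and the degradome itself adds only the reads at the 2 positions. The other 4 family sequences, 3 from the 5′ arm and gma-miR171b-3p_1ss16TC, had no listed target. For the last of these, the ungapped placement on the site with the most pairs put base 10 opposite position 1406, where the table listed no read. The table gives the transcript no gene name, so whether it encodes a GRAS-domain protein was not analysed here.

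Pairing differed among the members. lja-miR171d-5p had 20 Watson-Crick pairs and a single mismatch, at base 19, and an alignment score of 1 in the authors' deposited table, where lower is better. aqc-miR171a also had 20 pairs and a score of 1 in the authors' deposited table, with a G:U wobble at base 12 and no mismatch. Both had 1 imperfect position, but for aqc-miR171a it lay at position 1408 of the transcript, between the cuts.

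The remaining members had 2 or 3 imperfect positions each. mtr-miR171d_R+1 added a wobble at base 22, with a score of 1.5 in the authors' deposited table. ctr-miR171 had wobbles at bases 11 and 19 and a mismatch at base 21, with a score of 2.5 in the authors' deposited table. gma-miR171c-3p and its 22-nt variant both had a wobble at base 9, which is again position 1408, and mismatches at bases 19 and 21, with a score of 3 in the authors' deposited table. C at base 9 pairs with the G of position 1408, so lja-miR171d-5p and ctr-miR171 were the members without a wobble there.

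**Figure D3:**
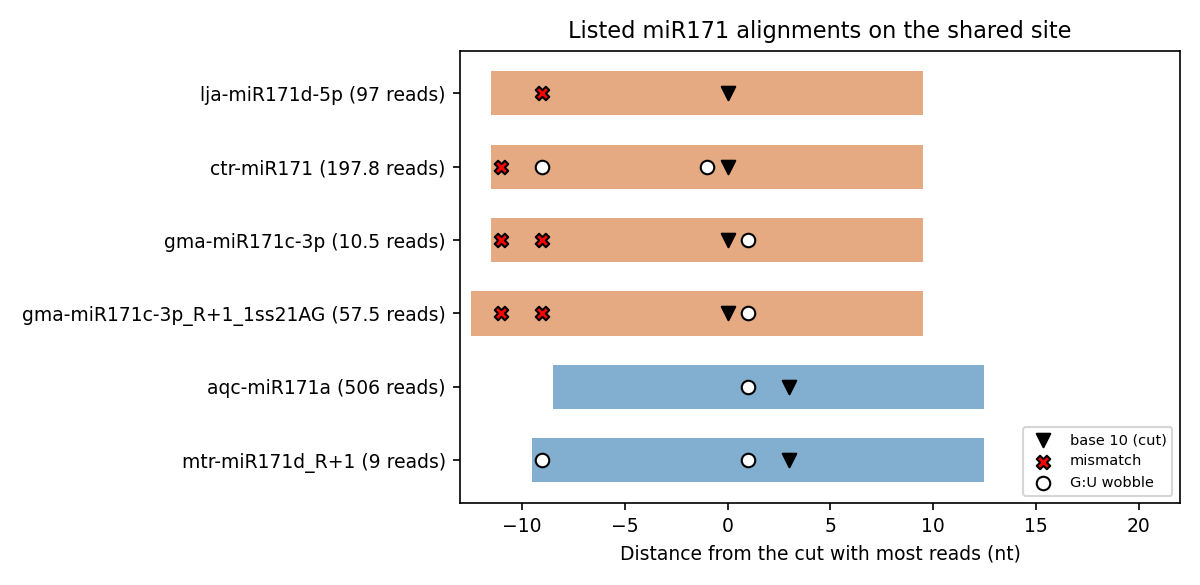
Bars span the part of the site that each listed member covers (x axis, nt from the cut with most reads, y axis, members with their small RNA reads), with late members in orange and early members in blue. Triangles mark base 10, circles wobbles and crosses mismatches, and base 10 falls at 0 for the 4 late members and at 3 nt for the 2 early ones.

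The 5′ arm sequences resembled the target site itself, since both pair with the 3′ arm. gma-miR171c-5p_2ss5AG11GA shared 16 of 21 letters with the site without gaps. gma-miR171j-5p and aly-miR170-5p_R+2 each shared 15 of the 19 letters that overlap it.

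At position 1407 there were 90 of the 565 degradome reads on the transcript, 15.9% (13.01 to 19.2%). At position 1410 there were 50 reads, 8.85% (6.64 to 11.5%). All 140 of these matched 1 place alone, as did 551 of the 565. The cuts were the highest and the second-highest of the 61 positions with reads, and together they held 24.8% (21.3 to 28.6%).

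The other 59 positions held 1 to 17 reads each, with a median of 7 and the highest at position 1958. The cut at 1407 was 5.29-fold and the cut at 1410 was 2.94-fold above that position. Reads away from the cuts lay on both sides of them, with 219 reads at 31 positions upstream and 206 at 28 positions downstream. Positions with reads were sparse along the whole transcript, 61 over 2584 nt, with none between 148 and 325, for example. Few positions near the cuts are thus not particular to the site. Within 20 nt of either cut, the sole other position with reads was 1404, with 4 reads. It lies 3 nt upstream of 1407, and no listed member has its base 10 there. The next positions with reads were 1361 upstream and 1431, with 9 reads, downstream.

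**Figure D4:**
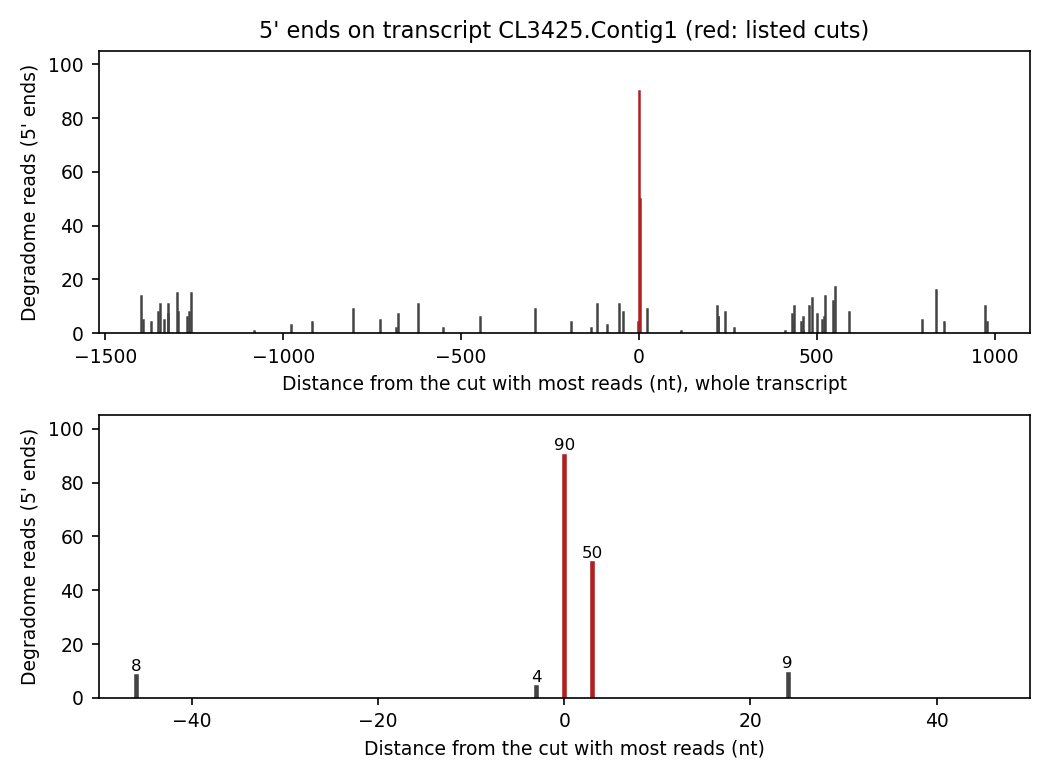
Lines give degradome reads by the position of their 5′ end (y axis, reads, 1 library), as distance in nt from the cut with most reads (x axis), over the whole transcript above and within 50 nt below. The listed cuts, in red, have 90 and 50 reads, and no other position exceeds 17.

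In the authors' deposited table, position 1407 was of category 0 and position 1410 of category 2. Of all 69 listed positions, 33.3% were of category 0. The table does not define its categories, but 99.8% of its 9710 positions followed a simple rule on reads divided by their matches. By this rule category 0 is the single highest position of a transcript, category 1 a tied highest one, category 2 lies at or above the median and below the highest, category 3 lies below the median, and category 4 has 1 read. No transcript had more than 1 position of category 0. Position 1410 could therefore not be of category 0 while 1407 had more reads.

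The same difference ran through the authors' p-values. The 4 alignments at 1407 had p-values from 0.00417 to 0.00601 in the authors' deposited table, and the 2 at 1410 had 0.143 and 0.154. Of all 108 listed alignments, 44.4% had a p-value of at most 0.05 in the authors' deposited table, and 39.8% were of category 0. Of the 6 family alignments, 4 met either limit, but these share a single position and are not separate signals.

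Set against the other listed positions, the family's cuts ranked higher by reads than by share, and both lay above the median by either measure. Position 1407 ranked 10th of 69 by reads and 24th by share of its transcript. Position 1410 ranked 16th by reads and 31st by share. The median listed position had 13 reads and 5.71% of its transcript.

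The order of the registers differed between the libraries. Of the 877.8 small RNA reads in both registers, the early register had 58.7% (55.3 to 61.9%) and the late register 41.3% (38.1 to 44.7%). Of the 140 degradome reads at both cuts, the cut of the early register had 35.7% (27.8 to 44.2%) and that of the late register 64.3% (55.8 to 72.2%). The intervals of either register do not overlap between the libraries. They cover counting error in 1 library of each kind, so this is a description with no replicate check. Among sequences placed on a contig, the early register had 75.7% of the small RNA reads, since ctr-miR171 then drops out.

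**Figure D5:**
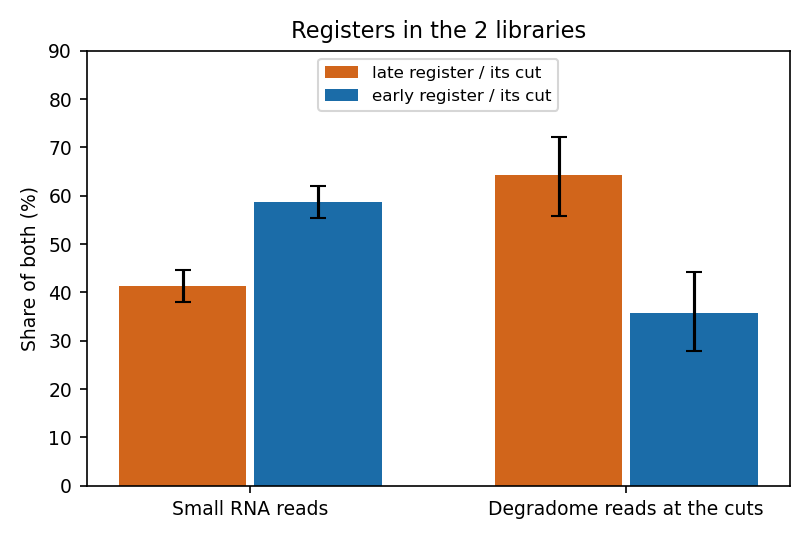
Bars give the share of each register (y axis, percent of both registers) among small RNA reads and among degradome reads at the cuts, with exact 95% binomial intervals as error bars. The early register has 58.7% of the small RNA reads and its cut 35.7% of the degradome reads.

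Listed cuts at more than 1 position of a transcript were uncommon. Of 66 listed combinations of a transcript with a family or a candidate miRNA, 5 or 7.58% had more than 1 listed cut, the family's pair included. The others were miR156 on CL6199.Contig2 and on Unigene25360, miR166 on Unigene8813 and miR408 on CL468.Contig5. Their cuts lay 1 nt apart for miR156 and miR166 and 2 nt apart for miR408, against 3 nt for miR171, the widest of the 5. A combination listed with a single alignment could not have more than 1 cut, whatever the degradome held. The family had 6 alignments over both registers, so the share of 7.58% does not show its pair to be unusual.

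The weaker cut of these pairs varied in depth. For miR171 it had 35.7% of the reads of both cuts. For miR166 it had 13 of 44 reads, or 29.5% (16.8 to 45.2%), and for miR156 on CL6199.Contig2 it had 45 reads against 144, or 23.8% (17.9 to 30.5%). For miR156 on Unigene25360 it had 3 reads against 13, and for miR408 3 against 1717. The intervals of miR171, miR166 and miR156 overlap, which does not show that the depths are alike, and the differences were not tested. For miR408 the share was 0.174% (0.036 to 0.509%), below the interval of miR171.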

How the data were processed

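The small RNA table holds estimated counts of raw reads per listed miRNA, deposited by the authors without normalization, per the file headers; 3 of the 10 family sequences have values that are not whole. Reads were summed over the entries of a sequence. The degradome table, deposited without column headers, was taken to give, in this order, the position, its reads, the same reads split over their matches, those with 1 match, and a category. Scores, p-values and categories are the authors' own. No aligner or genome build is given in the sources used here.

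Registers were assigned by the ungapped shift, of at most 6 nt, with the most letters shared with the most abundant sequence. Arms and duplexes were read from the deposited folds. The functions for register, pairing and cut were tested on simulated data. No test between samples was possible. Intervals are exact binomial at 95%. Members, lists and comparisons were chosen with earlier results of these data known. All members were named; their sequences were printed if they had a listed target or at least 10 reads, and the neighbouring families in read rank were added. The other families with more than 1 cut were named after their values were seen. Python 3.11.15, NumPy 2.4.6, SciPy 1.17.1 and matplotlib 3.10.9 were used.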

Additional observations from a re-analysis of the deposited data

How the results depend on the processing

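Of 14 alternatives for shares, 10 left the value within its counting interval and 4 did not. Of 3 alternatives for the number of cut positions, 1 left it as it was and 2 changed it. The family's share of listed reads, 0.163%, was 0.129% without the entries matched to other species alone and 1.05% without the most abundant listed sequence. The early register's share of both registers, 58.7%, was 88.3% over sequences without a mismatch to aqc-miR171a and 75.7% over sequences placed on a contig, an alternative chosen after seeing the data. Both of these settings leave out ctr-miR171, and the one with 88.3% also leaves out lja-miR171d-5p, with 97 reads. The number of cut positions, 2, fell to 1 with category 0 only and to 1 with p-values of at most 0.05 in the authors' deposited table. A minimum of 10 reads, merging of contained sequences, other ways to count shared reads, and a window of 1 nt kept the values they were run on within the counting interval. No paired analysis was possible because each library is single and no result comes from a test.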

Other observations

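The reads at 1404, 1407 and 1410 lie in steps of 3 nt. Over the other 58 positions of the transcript, with 421 reads, 23.0% of the reads (19.1 to 27.4%) lay a multiple of 3 nt from position 1407, 42.8% (38.0 to 47.6%) lay 1 nt past such a position and 34.2% (29.7 to 39.0%) lay 2 nt past it. These reads lay at 15, 24 and 19 positions, in the same order. Reads at a position are not independent of each other, so the intervals understate the spread. The step of the cuts had the fewest reads and positions elsewhere on the transcript, but a difference between the steps was not tested.

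The table lists precursors on the minus strand of contig_234556 at 1097 to 1171, for aqc-miR171a, and at 1024 to 1130, for gma-miR171c-3p_R+1_1ss21AG. By letters the 75-nt precursor lies whole inside the 107-nt one, 16 nt from its start, whereas by the listed coordinates the precursors overlap by 34 nt. The coordinates of both cannot hold in the same numbering, so the position of aqc-miR171a on this contig is uncertain.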
